A study of Mus musculus with 24 samples.

Results

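Expression of 10 genes of the Hippo pathway was followed in 6 mouse small cell lung cancer (SCLC) cell lines, with 1 library per line and condition. The genes were chosen by symbol: the transcriptional coactivators Yap1 and Wwtr1 (which encodes TAZ), the DNA-binding partners Tead1, Tead2, Tead3 and Tead4, the kinases Lats1 and Lats2, and the YAP-binding regulators Ptpn14 and Amotl2. They are 10 of the 25239 genes in the table, and all 10 were among the 14104 genes that passed the filter on low values and were tested. The values are TPM (transcript units scaled to a fixed library total), which divide read signal by transcript length so that levels of different genes can be set side by side.

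In Hippo signalling, kinases of the MST family activate LATS1 and LATS2, which phosphorylate YAP and TAZ and hold them in the cytoplasm. Unphosphorylated YAP and TAZ enter the nucleus, where they bind TEAD proteins and switch on genes for growth, matrix and the cytoskeleton, among them LATS2, AMOTL2 and PTPN14, whose products restrain YAP in turn. Because this control acts largely on the protein, transcript levels of YAP1 and TAZ do not by themselves report their activity. Primary neuroendocrine SCLC is known for low YAP1, and YAP1 marks cells of this cancer that lack neuroendocrine features.

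All lines came from single lung tumors of Rb1 fl/fl; Trp53 XTR/XTR; Rbl2 fl/fl; Rosa26 FlpO-ER mice, started with an adenovirus that carried Cre under the CMV promoter. Every group, controls included, therefore lacked Rb1 and Rbl2, and carried a Trp53 allele trapped by Cre that FlpO reopens when 4-hydroxytamoxifen (4-OHT) is given. The study sorted lines by their fate after p53 came back: Type D lines (4711-1, 4711-18 and 4716-11) lost viability and Type V lines (4711-11, 4716-10 and 4716-14) stayed viable. Each line was sampled at 72 h in 4 conditions: vehicle (Control), cyclosporin A, a drug that binds cyclophilins (Control + CsA), 4-OHT (Restored), and both agents (Restored + CsA). This gave 8 groups of 3 lines and 24 libraries, and the 4 libraries of a line are not independent of each other.

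The labels of restoration held: Trp53 was at 10.5 to 15.3 TPM in the 12 libraries without 4-OHT and at 181.5 to 252.7 TPM in the 12 libraries with it. The CsA labels were not checked in this way. The labelled cell type was not borne out by these defining markers: Neurod1, Pou2f3, Chga, Calca and Dll3 stayed under 0.5 TPM in every library of both types. Types differed in other lineage genes: 5 epithelial markers summed to 4440 to 11800 TPM in Type D and 490 to 1580 TPM in Type V, and 7 fibroblast markers summed to 0.304 to 1.93 TPM in Type D, where 6 of 7 stayed under 0.5 TPM, and to 75.6 to 572 TPM in Type V, where 6 of 7 reached 1 TPM. The epithelial sums differed mainly through Krt8 and Krt18, at least 1680 and 2360 TPM in Type D and at most 567 and 762 TPM in Type V. Cdh1 overlapped between types, and Epcam reached at most 4.57 TPM. Smooth muscle markers summed to 0.85 to 5.01 and 2.9 to 362 TPM, leukocyte markers to 5.63 to 55.7 and 7.97 to 31.6 TPM with Ptprc, Adgre1 and Cd3e under 0.5, and endothelial markers to at most 0.922 TPM. Acta2 alone reached 361 TPM in Type V, and Cd68 alone reached 55.3 TPM in Type D and 31.3 TPM in Type V. The part that these lineage differences play in the comparisons of types was not tested, and in bulk RNA fewer expressing cells and less RNA per cell cannot be told apart.

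Of the 10 genes, Ptpn14 and Tead3 moved most with p53 restoration. Ptpn14 rose in both types, with and without CsA, and it was also the only one of the 10 called between types before restoration. Tead3 was called in Type D, a call that was lost without any 1 of its 3 lines, and in Type V it was called only with the cell line as a block. The response of Tead3 was not shown to differ between types, and the other 8 genes were not called by restoration in either type. Calls come from limma fitted to all tested genes, and require a Benjamini-Hochberg adjusted p below 0.05 together with a log2(TPM + 1) difference that reaches 1 in size. By this rule restoration called 2 of the 10 genes in Type D, where 6.93% of all tested genes were called, and 1 of 10 in Type V, where 5.29% were. Under CsA the counts were 2 of 10 against 5.41% in Type D and 1 of 10 against 4.61% in Type V. Over the 10 genes the median change in Type D was 0.23 log2 (0.07 over all tested genes), and in Type V it was 0.04 (0.05). In Type D, 6 of the 10 moved the same way in all 3 lines, where 65.3% of all tested genes did, and in Type V 5 of 10 did, beside 57.7%. Under CsA these counts were 8 of 10 beside 61.2% and 4 of 10 beside 54.8%.

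**Figure D1:**
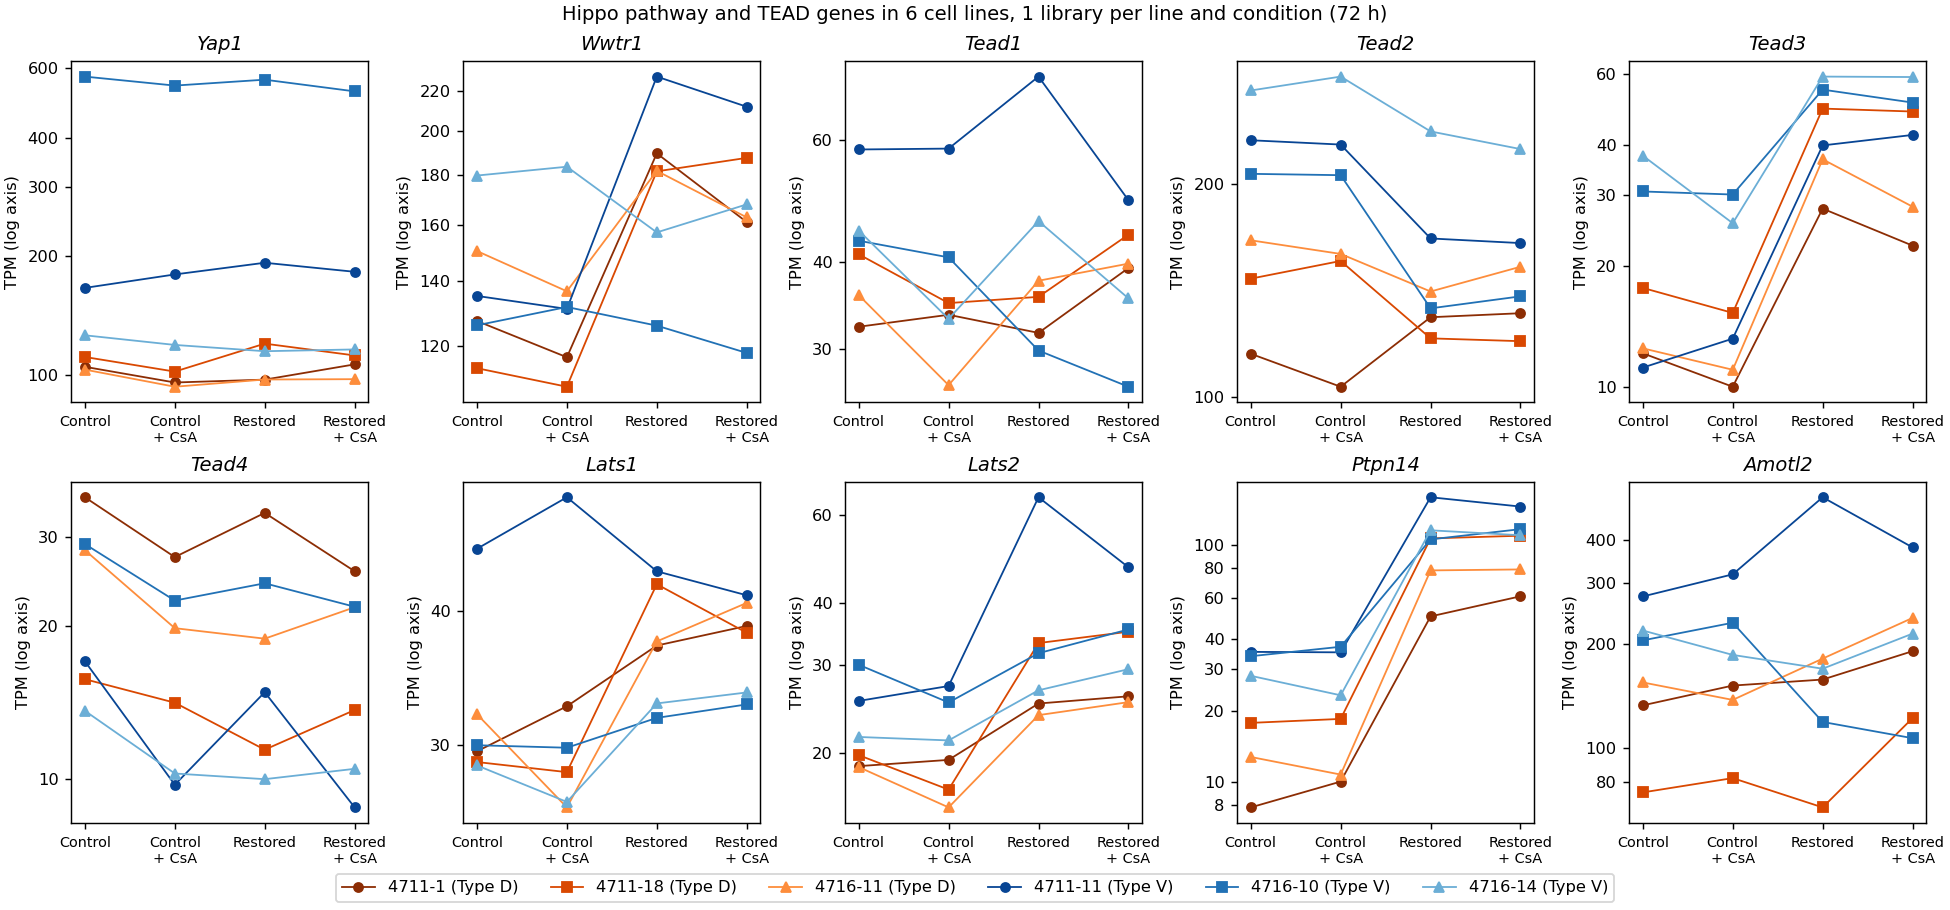
TPM (log axis) of each gene in the 4 conditions at 72 h, 1 point per library, with lines joining the libraries of a cell line (Type D in orange, Type V in blue). Ptpn14 and Tead3 are higher in every restored library than in the same line without restoration, and Yap1 in 4716-10 stands apart in all 4 conditions.

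Yap1 encodes the coactivator YAP. In Control its level was 105, 111 and 103.3 TPM in the Type D lines 4711-1, 4711-18 and 4716-11, and 166, 571 and 126 TPM in the Type V lines 4711-11, 4716-10 and 4716-14. The groups did not overlap, but 1 Type V line lay far above the rest. Across all conditions 4716-10 held 524 to 571 TPM, and the other 20 libraries held 93.5 to 193 TPM. The mean difference between types in Control was -1.10 log2 (SE 0.61), with an adjusted p of 0.261, so it was not called, and it was -0.44 with an adjusted p of 0.203 without 4716-10.

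Restoration left the Yap1 level close to where it was in each line. The Restored libraries held 97.4, 120 and 97.5 TPM in Type D and 193, 561 and 115 TPM in Type V. The estimated change was -0.03 log2 (SE 0.61, adjusted p = 1.0) in Type D and 0.02 (adjusted p = 0.998) in Type V. The SE of that fit carries the spread between lines. With the cell line as a block it was 0.07, and the adjusted p was 0.804 and 0.870.

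Wwtr1, which encodes TAZ, was expressed at a similar order to Yap1 outside 4716-10. Its Control levels were 127, 114 and 150 TPM in Type D and 135, 126 and 180 TPM in Type V, and these overlapped. After restoration they were 190, 182 and 182 TPM in Type D and 228, 126 and 157 TPM in Type V. All 3 Type D lines were higher than before, by 0.27 to 0.67 log2, whereas in Type V 4711-11 was higher by 0.75, 4716-10 was level and 4716-14 was lower by 0.19. The mean change in Type D, 0.50 log2 (SE 0.22), had an adjusted p of 0.150, and of 0.0233 with the cell line as a block, short of 1 log2 in both fits. In Type V it was 0.18 (SE 0.22, adjusted p = 0.724). Together the pair of coactivators summed to 237 ± 14.9 TPM (SD, n = 3 lines) in Type D Control, of which Yap1 made up 45.1% ± 4.35, and in 4716-10 Yap1 made up 81.9% of the sum.

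Among the TEAD transcription factors, through which YAP and TAZ bind DNA, Tead2 was the main transcript in every library and made up 64.6% ± 4.99 of the summed Tead TPM in Type D Control and 71.1% ± 3.80 in Type V Control (SD, n = 3 lines). Its Control levels were 115, 147 and 167 TPM in Type D and 230, 207 and 271 TPM in Type V, with no overlap. The difference of -0.73 log2 (SE 0.22) had an adjusted p of 0.0363 and stayed below the 1 log2 that a call required. In Restored libraries Tead2 was at 130, 121 and 141 TPM in Type D and at 168, 134 and 237 TPM in Type V, where the types overlapped and the difference was -0.42 (adjusted p = 0.223). All 3 Type V lines were lower after restoration. That change was -0.42 log2 (SE 0.22, adjusted p = 0.279), and the adjusted p was 0.00778 with the cell line as a block.

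Tead3 was a minor family member before restoration and held a larger share of the family after it. Control levels were 12.1, 17.6 and 12.5 TPM in Type D and 11.2, 30.6 and 37.5 TPM in Type V. Restored levels were 27.7, 49.2 and 36.8 TPM in Type D and 39.8, 54.8 and 59.0 TPM in Type V. In each of the 6 lines the restored library was higher, by 1.13 to 1.49 log2 in Type D and by 0.64 to 1.75 in Type V. The change in Type D was 1.35 log2 (SE 0.38), 2.55-fold, with an adjusted p of 0.0238. This call needed all 3 lines: without 4711-1, 4711-18 or 4716-11 the change was 1.46, 1.31 or 1.28 and the adjusted p 0.0975, 0.117 or 0.194. In Type V the change was 1.07 log2 (SE 0.38, adjusted p = 0.0867), which was not called, and with the cell line as a block the adjusted p was 0.000351 and it was called. The change was 0.28 log2 larger in Type D than in Type V (SE 0.54, adjusted p = 1.0), so the types were not shown to differ.

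As a share of the summed Tead TPM, Tead3 was 6.43% ± 1.42 in Type D Control and 16.9% ± 5.16 in Type D Restored, and 7.87% ± 3.76 in Type V Control and 17.6% ± 4.65 in Type V Restored (SD, n = 3 lines). The sum itself was 220 ± 23.8 TPM in Type D Control and 225 ± 8.72 TPM in Type D Restored, and 331 ± 31.1 and 297 ± 54.8 TPM in Type V. Tead3 thus made up a larger part of a family total that in Type D lay within the spread of its lines. The level of Tead3 in Type V Control rested on the line: 4711-11 was as low as the Type D lines, and without it the difference between types was -1.23 log2 (adjusted p = 0.0138), against -0.72 (SE 0.38, adjusted p = 0.230) with all lines.

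**Figure D2:**
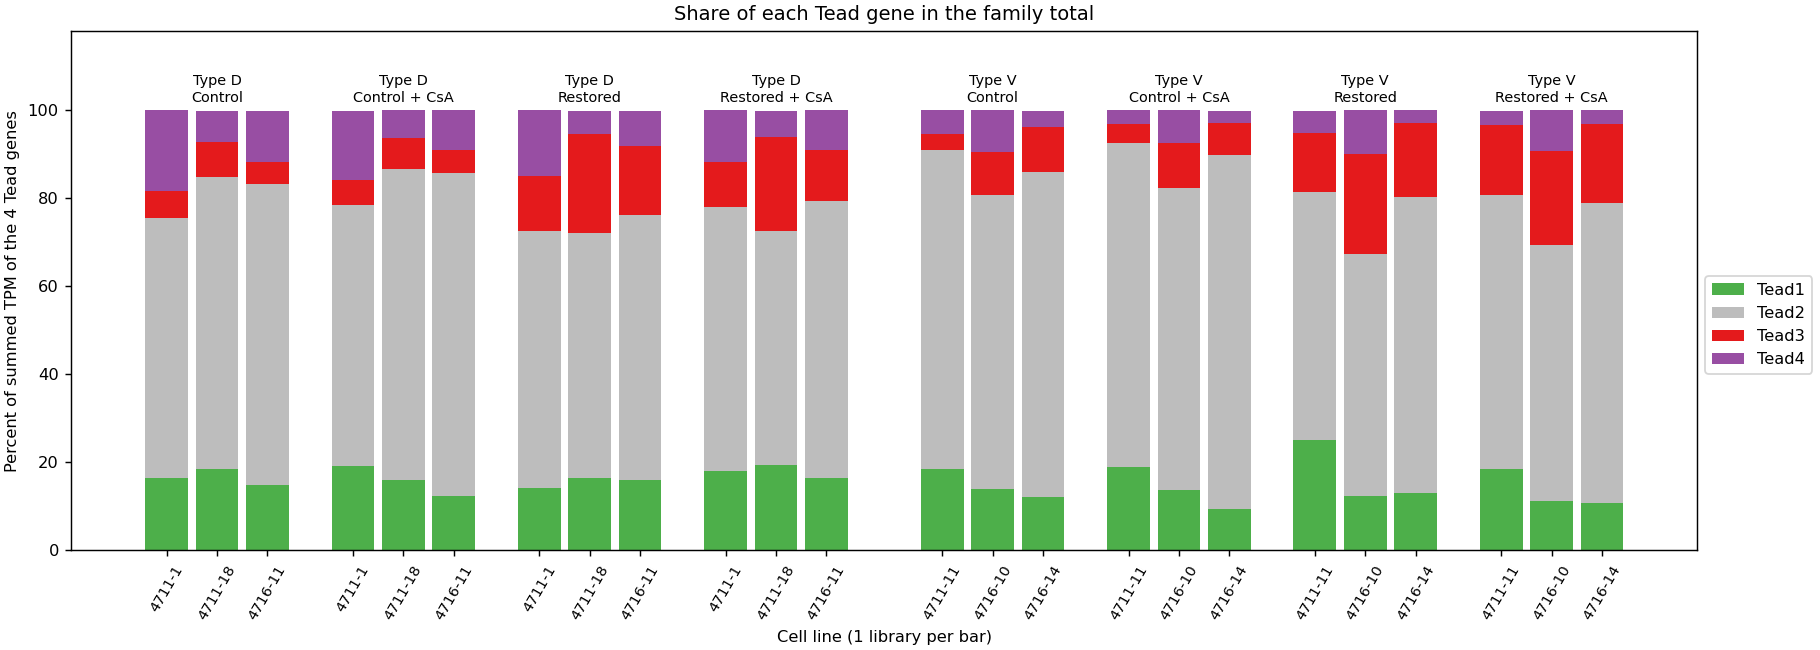
Percent of the summed TPM of Tead1 to Tead4 taken by each gene, 1 bar per library, with libraries grouped by type and condition. Tead2 is the largest share throughout, and the Tead3 share (red) averages 6.43% and 7.87% in the Type D and Type V Control groups and 16.9% and 17.6% in the Restored groups.

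Tead1 and Tead4 were not called in any comparison. Control libraries held Tead1 at 32.3, 41.04 and 35.8 TPM for Type D and 58.1, 42.9 and 44.4 TPM for Type V, which did not overlap, with a difference of -0.40 log2 (SE 0.27, adjusted p = 0.360). After restoration it was at 31.6, 35.6 and 37.6 TPM in Type D and at 74.1, 29.8 and 45.8 TPM in Type V, so the Type V lines spread apart. Tead4 ranged from 8.81 to 35.9 TPM with lines of both types at both ends. It was lower after restoration in all 6 lines, by -0.36 log2 on average in Type D (SE 0.45, adjusted p = 0.713, and 0.0461 with the cell line as a block) and by -0.28 in Type V (adjusted p = 0.819).

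Lats1 and Lats2 encode the kinases that inhibit YAP and TAZ. Lats1 levels in Control were 29.6, 29.0 and 32.1 TPM in Type D and 45.7, 30.0 and 28.7 TPM in Type V, and in Restored 37.2, 42.4 and 37.5 TPM and 43.6, 31.8 and 32.8 TPM. The 3 restored Type D libraries lay above all 3 Type D controls, with a change of 0.36 log2 (SE 0.21, adjusted p = 0.309, and 0.0137 with the cell line as a block). Lats2, itself a YAP target in other cells and a gene known to be linked to p53, was higher after restoration in all 6 lines. Its Control levels were 18.8, 19.8 and 18.7 TPM in Type D and 25.4, 30.0 and 21.5 TPM in Type V. Its Restored levels were 25.1, 33.2 and 23.8 TPM in Type D and 65.0, 31.7 and 26.7 TPM in Type V. The Type V change was uneven, 1.32 log2 in 4711-11 against 0.07 and 0.30 in 4716-10 and 4716-14. The group changes, 0.48 log2 in Type D (SE 0.25, adjusted p = 0.255) and 0.57 in Type V (adjusted p = 0.193), were not called, and with the cell line as a block their adjusted p was 0.0356 and 0.0179, still below 1 log2.

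The block turned several small changes into ones with a low adjusted p, and it did so across the genome. With it, 6 of the 10 genes had an adjusted p under 0.05 for restoration in Type D and 4 of 10 in Type V, at any size of change, beside 45.3% and 40.6% of all tested genes. These shares lie near the background. The counts with at least 1 log2 were 2 of 10 in Type D (11.2% of all genes) and, with Tead3 added, 2 of 10 in Type V (8.66%).

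Ptpn14 encodes a tyrosine phosphatase that binds YAP and keeps it out of the nucleus, and it had the widest range of the 10 genes, 20.2-fold over the 24 libraries. Control levels were 7.85, 17.8 and 12.8 TPM in Type D and 35.45, 34.0 and 28.1 TPM in Type V. Restored levels were 50.0, 106.5 and 78.1 TPM in Type D and 158.7, 105.5 and 115 TPM in Type V. Every restored library lay above every unrestored library of either type. The rise in Type D was 2.52 log2 (SE 0.31, adjusted p = 1.55e-05), 5.74-fold, and the 3 lines rose by 2.52 to 2.53. The rise in Type V was 1.91 log2 (SE 0.31, adjusted p = 0.000415), 3.76-fold, from 1.61 in 4716-10 to 2.13 in 4711-11. All 3 Type D lines rose more than all 3 Type V lines. The difference of 0.61 log2 (SE 0.44) had an adjusted p of 1.0, and of 0.0596 with the cell line as a block, so it was not called. limma called 0 of the 10 genes for a difference in response between types, where 0.0284% of all tested genes were called. Under CsA it called 0 of 10, where 0.0142% were. Without CsA, 0 of 10 had an unadjusted p under 0.05, beside 540 of the 14104 tested genes.

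Before restoration Ptpn14 was lower in Type D than in Type V by 1.34 log2 (SE 0.31, adjusted p = 0.00693), and it was the 1 gene of the 10 called in that comparison, where 8.83% of all tested genes were called and 4.41% were called lower. The difference was -1.5 within the lines whose names begin 4711 (2 Type D, 1 Type V) and -1.21 within those that begin 4716 (1 and 2), a prefix whose meaning the labels do not state. Fitted on the 6 Control libraries alone it was not called, with an adjusted p of 0.0696. With CsA it was -1.24 (adjusted p = 0.0108), 1 of 10 genes called against 9.88% of all genes, and this call was lost without 4716-11 (-1.14, adjusted p = 0.0935) and without 4711-11 (-1.16, adjusted p = 0.0533). After restoration the 2 types overlapped, 4711-18 reaching 106.5 TPM and 4716-10 105.5 TPM, and the difference was -0.73 (SE 0.31, adjusted p = 0.123).

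**Figure D3:**
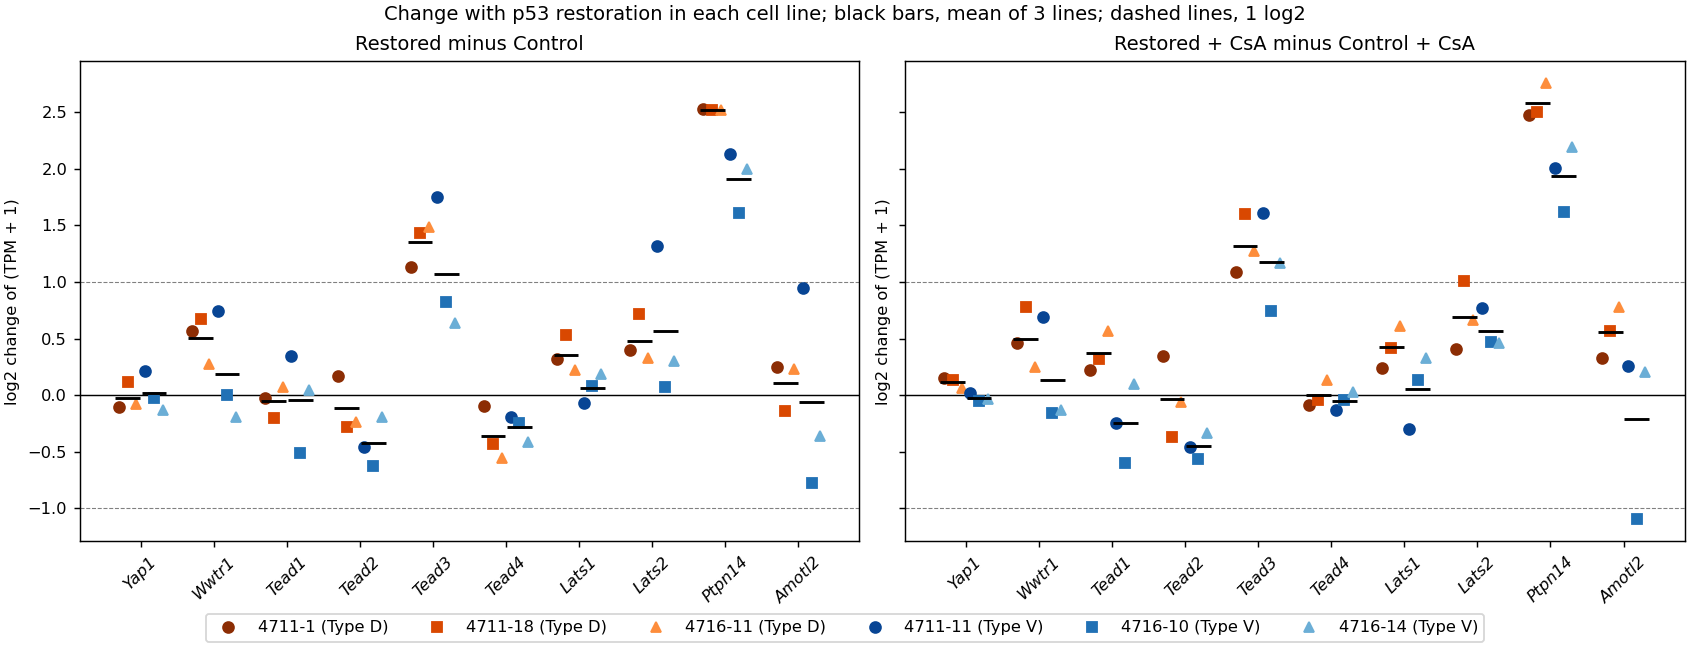
Change in log2(TPM + 1) with p53 restoration for each gene and cell line, without CsA (left) and with CsA (right), 1 point per line, with black bars for the mean of 3 lines and dashed lines at 1 log2. Ptpn14 lies above 1.5 in all 6 lines in both panels and Tead3 above 0.6, whereas Yap1 stays close to 0 and, without CsA, Amotl2 and Lats2 spread widely in Type V.

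Amotl2 encodes an angiomotin that holds YAP at cell junctions, and its transcript is a frequent readout of YAP and TEAD activity. Control levels were 133, 74.6 and 155 TPM in Type D and 275, 205 and 219 TPM in Type V, which did not overlap. The difference between types was -0.99 log2 (SE 0.51, adjusted p = 0.222). Restored levels were 158, 67.5 and 182 TPM in Type D and 531, 119 and 170 TPM in Type V. The Type V lines moved in opposite directions, 4711-11 by 0.95 log2, 4716-10 by -0.78 and 4716-14 by -0.36, and the mean change of -0.06 (SE 0.51, adjusted p = 0.985) does not describe any of them. In Type D it was 0.11 (adjusted p = 0.965).

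Of the 10 genes, 6 did not overlap between types in Control, all of them lower in Type D: Yap1, Tead1, Tead2, Lats2, Ptpn14 and Amotl2. Among all tested genes 31.4% did not overlap, and 19.5% did so with Type D lower. In Control + CsA the count was 5 of 10 against 31.8%, in Restored 0 of 10 against 29.2%, and in Restored + CsA 2 of 10, Yap1 and Ptpn14, against 30.0%. The median difference of the 10 genes in Control was -0.56 log2, beside -0.12 over all tested genes. With p53 restored, limma called 0 of the 10 genes between types, where 9.44% of all genes were called. At an unadjusted p under 0.05 was 1 of 10, Ptpn14, beside 4120 of the 14104 tested genes. With both agents limma called 0 of 10 against 7.82%. At an unadjusted p under 0.05 were 0 of 10, beside 3730 of all tested genes.

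CsA itself moved none of the 10 genes past the threshold. In each type, with or without restoration, limma called 0 of 10. Over all 14104 genes it called 0 genes (0.0%), except 2 genes (0.0142%) in restored Type D lines. At an unadjusted p under 0.05 were 0 of 10 each time. Of all tested genes, 54 (Type V without restoration) to 229 (restored Type D) were. With the cell line as a block 0 of 10 were called too, beside 0.0142% and 0.128% of all genes in Type D without and with restoration and 0.0% in Type V. The response of Ptpn14 to restoration was 2.58 log2 (adjusted p = 1.67e-05) under CsA in Type D and 1.94 (adjusted p = 0.000361) in Type V. Set against the response without CsA, the difference was 0.06 log2 for Type D and 0.03 for Type V, each with an SE of 0.44 and an adjusted p of 1.0. Restored Type D libraries with CsA held Ptpn14 at 60.8, 109 and 78.8 TPM, next to 50.0, 106.5 and 78.1 TPM without it. For Tead3 the change under CsA was 1.32 log2 in Type D (adjusted p = 0.0347) and 1.17 in Type V (adjusted p = 0.0684, and 0.000185 with the cell line as a block). The Type D call under CsA was lost without any 1 of the 3 lines (1.18 to 1.44, adjusted p = 0.116 to 0.242).

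The promoters of the 10 genes were read from RefSeq (GRCm38.p6), in windows of 250 bases that end at an annotated start site. 8 of the 10 genes had a window, 12 windows in all; Tead1 and Tead4 had none. The letters GGAATG, the core that TEAD proteins recognise, were searched on both strands and found in 7 of the 12 windows, which belong to 5 genes, beside 12.6% of 32851 windows of all genes. Some windows of a gene overlap, so windows are not independent, and the same Wwtr1 match is counted in each of its windows. The share of all genes with a match in any window was not counted. The window of Ptpn14, the gene with the largest response, is printed whole, and 28 bases around each match are printed for the other genes, with the match in capitals (CATTCC is the core on the opposite strand).

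Ptpn14 window, chr1:189728018-189728267, plus strand: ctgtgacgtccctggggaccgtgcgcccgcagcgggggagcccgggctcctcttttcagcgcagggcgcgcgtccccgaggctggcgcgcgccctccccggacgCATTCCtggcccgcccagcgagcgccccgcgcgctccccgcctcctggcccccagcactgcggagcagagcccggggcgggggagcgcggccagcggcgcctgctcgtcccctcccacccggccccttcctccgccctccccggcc
Wwtr1, chr3:57576030-57576057, minus strand: gtaaactcaaaGGAATGcagataggcgc
Yap1, chr9:8004721-8004748, minus strand: gggagtctgcaGGAATGtagcgacgcgc
Amotl2, chr9:102717728-102717755, plus strand: tgaaactctcaCATTCCtggcatagcag
Tead3 upstream start site, chr17:28350971-28350998, minus strand: acgacgagcgaGGAATGgggtgcgcggg
Tead3 middle start site, chr17:28350703-28350730, minus strand: ccgggctCATTCCgtaCATTCCggccat

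In Ptpn14 the match began 146 bases before the start site, and in Tead3 a pair of matches lay close together in the middle one of its 3 windows, the window furthest downstream holding none. Matches also occurred in Yap1, Wwtr1 and Amotl2, which were not called by restoration. The strict consensus of a p53 half-site was found in 0 of the 12 windows of these 8 genes, beside 7.13% of all windows. With so few windows, a count of 0 is not far from that share. This says only that these letters are not in these 250 bases.

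Other genes of the pathway were followed in a list of 27 upstream and partner genes, of which 24 were tested (Dchs1, Vgll1 and Vgll2 were too low). Restoration called 3 of the 24 in Type D, where 6.93% of all tested genes were called. All were higher: Frmd6, a scaffold that activates the kinases (1.21 log2, SE 0.25, adjusted p = 0.00305), Fat1, an atypical cadherin (1.14, adjusted p = 0.0123), and Amotl1, an angiomotin like Amotl2 (1.42, adjusted p = 0.0289). In Type V it called 2 of 24, beside 5.29% of all genes, Fat1 (1.42, adjusted p = 0.0031) and Stk38l, a kinase related to LATS (1.01, adjusted p = 0.000855). The 3 Type D lines held Fat1 at 117, 77.1 and 131 TPM in Control and 273, 177 and 271 TPM in Restored, and the Type V lines at 98.5, 100 and 80.7 TPM and then 286, 172 and 318 TPM. It was the 1 gene of the list called in both types. Stk38l also rose in Type D, by 0.82 log2 (adjusted p = 0.00423), short of 1 log2. Frmd6 and Amotl1 changed by 0.51 and 0.59 in Type V (adjusted p = 0.251 and 0.464). For a difference in response between types limma called 0 of the 24, beside 0.0284% of all genes called. At an unadjusted p under 0.05 was 1 of 24, beside 540 of the 14104 tested genes. With the cell line as a block 0 were called and 4 of 24 had an adjusted p under 0.05. The share of all genes for that count is not given here, so it is not read as a result. The kinases Stk3 and Stk4, the adaptor Sav1 and the tumor suppressor Nf2, which form the core upstream of LATS, were not called in any of the comparisons of restoration or type. The list had a median change of 0.19 log2 in both types, beside 0.07 and 0.05 over all tested genes.

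Between types in Control, 4 of these 24 genes were called, beside 8.83% of all tested genes. Taok3, a kinase that acts on MST, was higher in Type D at 49.2, 42.7 and 55.5 TPM against 18.4, 23.7 and 20.6 TPM (1.19 log2, adjusted p = 0.000342). Fat4, Amot and the TEAD cofactor Vgll3 were lower in Type D. Fat4 was at or below 0.0554 TPM in the 3 Type D lines and at 26.7, 9.80 and 14.5 TPM in Type V (adjusted p = 0.00693), and Vgll3 was listed at 0 in all 3 Type D lines and at 10.1, 3.58 and 13.7 TPM in Type V (adjusted p = 0.00412). Amot was at 0.113, 12.6 and 0.648 TPM in Type D and at 21.1, 21.1 and 25.4 TPM in Type V, so 4711-18 lay nearer to the Type V lines (adjusted p = 0.0365). The fibroblast marker list moved between types in the same direction as Fat4 and Vgll3, from at most 1.93 TPM in sum in each Type D library to at least 75.6 TPM in Type V, and its part in these differences was not tested.

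The targets of YAP and TAZ were taken from a signature derived in human cancers, 19 genes beside Lats2, Ptpn14 and Amotl2, all tested. Restoration called 0 of 19 in Type D, beside 6.93% of all tested genes, and 0 of 19 in Type V, beside 5.29%. At an unadjusted p under 0.05 (limma) were 0 of 19 in Type D, beside 3563 of all 14104 tested genes. In Type V 1 of 19 was, beside 3117 of all tested genes. With the cell line as a block, 2 of 19 were called in Type D, beside 11.2% of all tested genes, Ankrd1 (1.70 log2, adjusted p = 0.000849) and Nt5e (1.5, adjusted p = 0.000895), and 0 in Type V. Their levels differed widely between lines of a type: Ankrd1, a cofactor best known as a YAP readout, stood in Control at 231, 25.2 and 597 TPM in the Type D lines and 420, 59.0 and 623 TPM in the Type V lines. It was at 726, 131 and 1300 TPM in Type D Restored, higher in each line, and at 915, 32.2 and 499 TPM in Type V Restored, higher in 1 line and lower in the others. Between types in Control 4 of 19 were called, where 8.83% of all tested genes were called and 4.41% were called lower. All 4 were lower in Type D: Fjx1 (-1.73), Ccdc80 (-5.25), Tgfb2 (-4.08) and Rbms3 (-2.70). These are not the classical readouts, and Ccn1, Ccn2 and Ankrd1 were not called (-0.55, -0.90 and -0.71). Tgfb2 also belongs to a signature of Type V lines that the study chose on these samples.

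**Figure D4:**
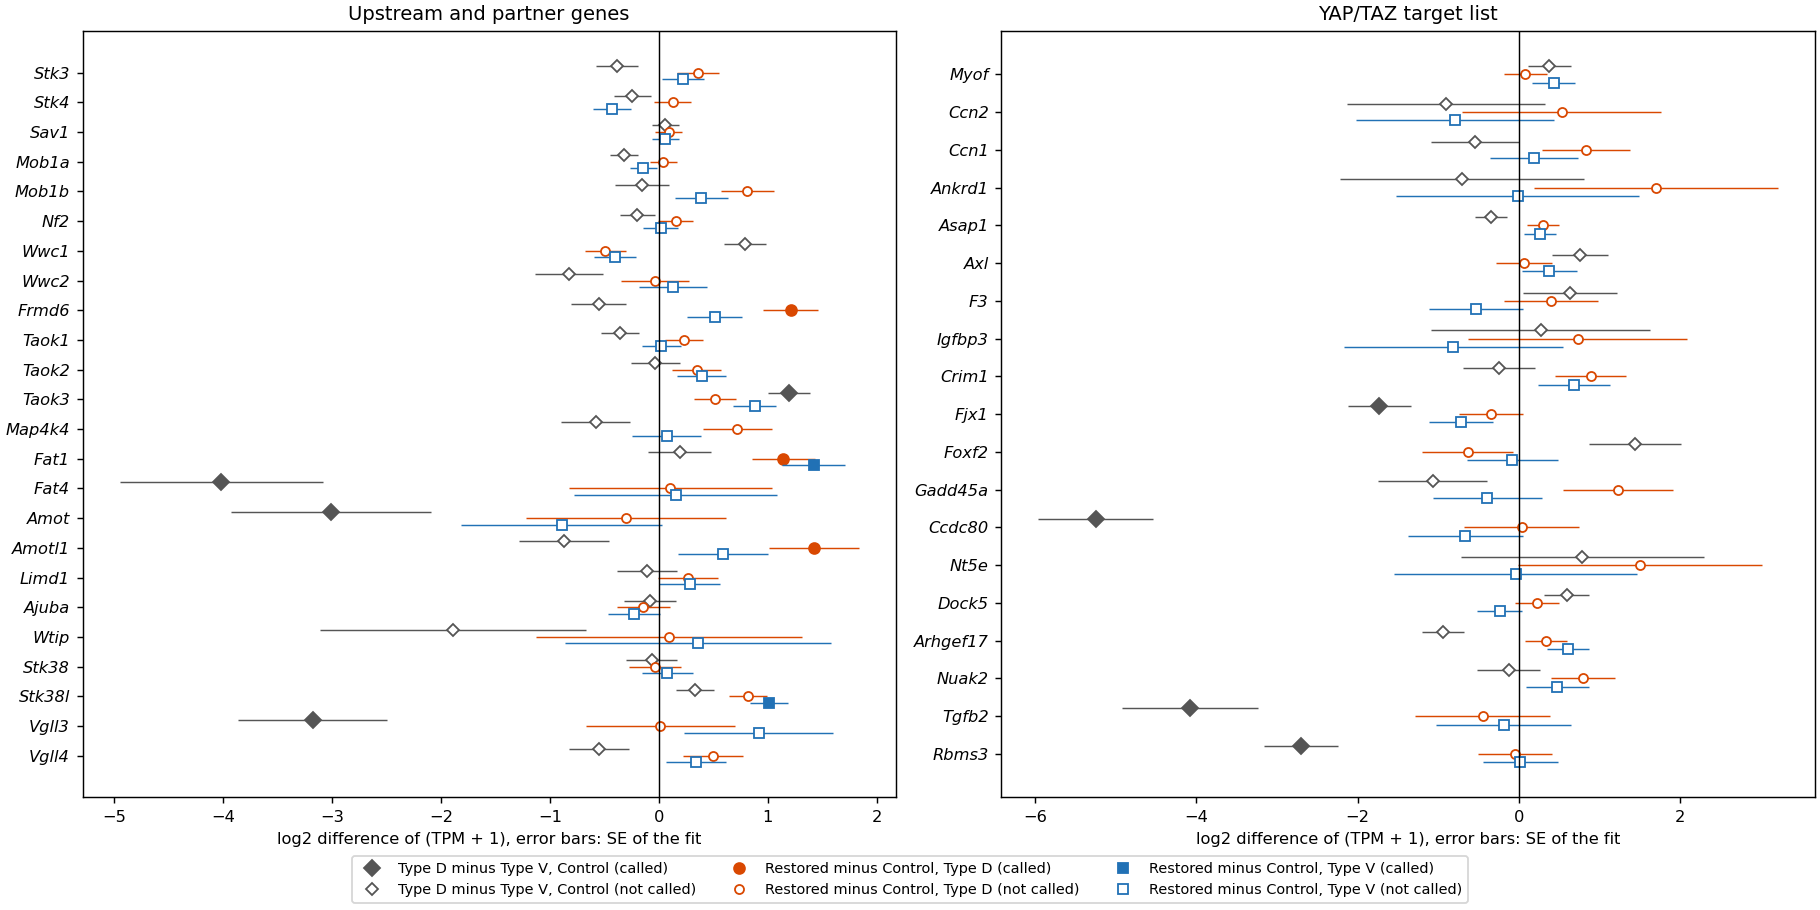
Fitted log2 differences of (TPM + 1), with the SE as error bars, for the 24 tested upstream and partner genes (left) and the 19 YAP/TAZ targets (right), for types in Control and for restoration in each type, with filled symbols where called. The called genes of the target list are 4 that are lower in Type D in Control, and none of the 19 is called by restoration.

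Without CsA, the targets moved differently in the Type V lines. In 4711-11, 14 of 19 targets were higher after restoration (median 0.49 log2), with Ccn1 and Ccn2, matrix proteins that are classical YAP targets, at 1.39 and 1.71 log2. In 4716-10 and 4716-14, 8 of 19 were higher in each (medians -0.15 and -0.32), and Ccn2 was at -2.60 and -1.48. In Type D lines 12, 13 and 15 of 19 were higher (medians 0.25 to 0.27), beside medians of 0.01 to 0.10 over all tested genes in the 6 lines. Of all tested genes, 50.9% to 58.0% were higher, depending on the line. Under CsA the medians of the Type V lines lay closer together. There 10 of 19 targets were higher in 4711-11 (median 0.09 log2, Ccn2 at 0.40), 7 of 19 in 4716-10 (median -0.18, Ccn2 at -3.32) and 8 of 19 in 4716-14 (median -0.09, Ccn2 at -1.40). Of all tested genes, 51.3%, 46.8% and 58.1% were higher in these lines, with medians of 0.02, -0.02 and 0.09. Of the members, Lats2 changed by 0.77, 0.47 and 0.46 log2 in these 3 lines under CsA, and Amotl2 by 0.26, -1.1 and 0.20. With a single library per line and condition these line differences have no replicate and were not tested.

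The line with the highest Yap1 was not the line with the highest level of most targets. In Control 1 of the 19 targets, Ccdc80, had its highest level in 4716-10, where 13.6% of all tested genes did, and 8 of 19 had theirs in 4716-14, where 17.9% of all genes did. None of the 19 had all 4 libraries of 4716-10 above the 20 others, as Yap1 did. Amotl2 was lowest among the Type V lines there in Control, and Ptpn14 was at 34.0 TPM, between the other Type V lines. Lats2 was highest there in Control, at 30.0 TPM against 18.7 to 25.4 TPM in the other lines.

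The high Yap1 of 4716-10 was shared by its neighbours on the chromosome. Yap1 lies near the end of chromosome 9 (chr9:7931999-8004596, minus strand, GRCm38 with GENCODE M21 annotation). Of the 23 tested genes from the first on that chromosome to Arhgap42, Yap1 included, 17 had all 4 libraries of 4716-10 above the other 20 libraries. Of all tested genes 2.78% did, and of those on chromosome 9 3.02% did, shares that include these same genes. Of the 23, 22 lay above the median of the other lines, and over the 23 the median was 5.12-fold. Yap1 itself was 4.90-fold above the median of the other lines. Birc2 and Birc3, which encode inhibitors of apoptosis, were 7.94-fold and 5.31-fold above it, Tmem123 6.93-fold, Cfap300 10.8-fold and Arhgap42 5.40-fold. Of the next 17 tested genes, from Jrkl to Med17, none met that criterion, and their median was 0.793-fold. The stretch was marked out after the values were seen, so these counts are a description with no test. DNA copy number was not measured in these libraries.

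**Figure D5:**
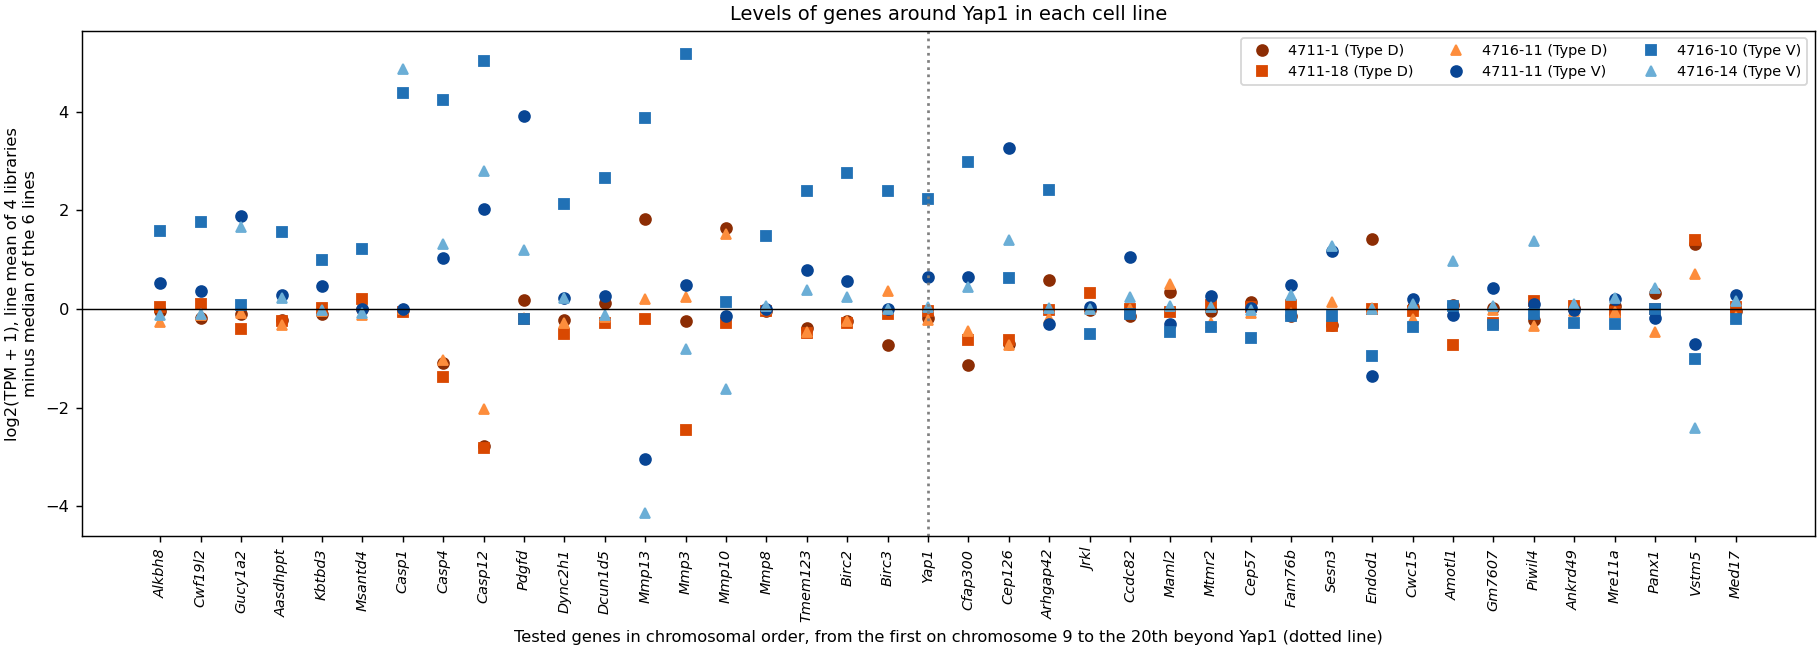
Mean log2(TPM + 1) of each line over its 4 libraries, less the median of the 6 lines, for tested genes in chromosomal order from the first on chromosome 9 through Yap1 (dotted line) to the 20th beyond it, 1 point per line. 4716-10 (blue squares) stands above the other lines at most genes up to Arhgap42 and near or below 0 from Jrkl on.

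Across the 24 libraries the genes most like each member, by Pearson correlation of log2(TPM + 1), repeated these patterns. For Yap1 they were Kif19a (0.981), its neighbour Birc2 (0.978) and Clec11a (0.974), and all of these correlations lean on the 4 libraries of 4716-10. For Ptpn14 they were Rap2a (0.978), Parp10 (0.974) and Trim56 (0.972), and for Tead3 the closest was Rad51d (0.941). Among the 10 genes Ptpn14 was closest to Tead3 (0.862) and Lats2 (0.837). Once each group's mean was removed, these correlations were 0.263 and 0.537, so the likeness of Ptpn14 and Tead3 lay mainly between groups. The libraries share lines and treatments and are not 24 independent points.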

How the data were processed

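RNA from 24 cultures (6 lines in 4 conditions) was sequenced from stranded mRNA libraries. The deposited table holds TPM per gene, which the authors computed. The submitters' notes name HISAT2 and the builds mm10 and GRCm39, and the study's methods also name kallisto, so the step that gave the TPM is not settled here. TPM keeps no depth, so the depth behind each value is unknown, and no counting interval is given. No columns were left unassigned.

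Genes with at least 1 TPM in at least 3 samples were kept (14104 of 25239), log2(TPM + 1) was fitted with limma 3.58.1 in R 4.3.3 (1 coefficient per group over 24 samples, eBayes with trend), and p-values were adjusted by Benjamini-Hochberg over all tested genes in each of 16 comparisons. Fold changes are on the TPM + 1 scale and understate those of low genes. Each line is 1 tumor-derived culture, and each group holds 3 lines. The p-values rest on a spread pooled over all groups, in which repeated samples of a line count as independent. For differences between types they may therefore be too low. Samples of a line are paired by its label: their deviations from group means correlated at 0.599 to 0.929 within a line and at -0.727 to 0.0438 between lines of a type, and the line was fitted as a block in an alternative. The fit was also repeated with 0.1 as the pseudocount, without the filter, with a minimum of 5 TPM, with median-ratio or quantile scaling, on the compared groups alone, with the line prefix as a term, and without each line in turn. Scripts were tested on simulated data. All 10 genes are named, and list genes are named where called or as examples. The members and lists were chosen with earlier results of these data known.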

Additional observations from a re-analysis of the deposited data

Results flagged for a closer look

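Tead1 under CsA in restored cells was picked out because every line of one type moved one way and every line of the other the opposite way. CsA changed it by 0.30, 0.29 and 0.08 log2 in the Type D lines 4711-1, 4711-18 and 4716-11, and by -0.58, -0.17 and -0.36 in the Type V lines 4711-11, 4716-10 and 4716-14, a gap of 0.595 log2 between the means. The difference itself was not tested. The share of all tested genes with such a split was not counted, so the pattern is not shown to be unusual. Neither change was called (adjusted p = 1.0 in both types, limma).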

How the results depend on the processing

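Of the counts of genes called, 192 stayed within 1.5 times over the alternatives and 16 moved, through Ptpn14 and Tead3 only. Fitted on the compared groups alone, the count was 0 between types in Control and in Control + CsA and 1 for restoration under CsA in Type D, for which it was also 1 with no filter, median-ratio scaling and quantile normalization. Leaving out a line gave counts of 1 to 2 between types in Control, 0 to 1 in Control + CsA (0 without 4716-11) and 1 for restoration in Type D, with and without CsA, whichever Type D line was left out. With the replicate block (cell line), the count for restoration was 2 in Type V and 2 under CsA in Type V, through Tead3 (1.07 and 1.17 log2), and the block changed no other call. Of the values of single genes, 538 kept direction and side of the threshold, 14 lost a call, 2 gained one, and 18 that were not called changed sign. Median-ratio scaling gave -0.0127 and quantile normalization -0.0192 for Yap1 in Type V restoration. With 1 line left out, their values ran, for restoration in Type D, from -0.0947 to 0.0146 (Yap1) and -0.114 to 0.0194 (Tead1), for restoration in Type V, from -0.0796 to 0.0923 (Yap1), -0.0975 to 0.372 (Wwtr1), -0.234 to 0.194 (Tead1) and -0.57 to 0.292 (Amotl2), between types in Control, from -0.287 to 0.0381 (Lats1), and for the response of Type D minus Type V, from -0.118 to 0.0538 (Yap1), -0.248 to 0.181 (Tead1), -0.209 to 0.0182 (Tead4), -0.328 to 0.296 (Lats2) and -0.182 to 0.681 (Amotl2). The causes were not tested. The block could not be fitted for differences between types, since each line has 1 type. TPM holds no depth, so low values such as those of Vgll3 carry an unknown counting error.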
